A study of Rattus norvegicus with 48 samples.

Results

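Fatty acid synthesis, elongation and desaturation in rat liver were followed through 10 genes chosen by name, out of 13337 genes named on the array. They are Acly, Acaca, Fasn, Aacs, Elovl5, Elovl6, Scd, Fads1, Fads2 and Srebf1. Of these, 9 had a probe under their symbol, 1 each, and 8 passed the filter on dim probes, which asked for a detection p under 0.05 on at least 8 arrays. Fasn was not analysed here. The Elovl6 probe was above background on 1 of 48 arrays and was not tested.

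The samples were liver tissue of male Fischer rats, measured on 1-colour bead arrays, on which the brightness of a probe reports the labelled RNA bound to it. Control liver was measured on 8 arrays, and each of 4 groups of preneoplastic nodules, early lesions of altered hepatocytes, on 10. The nodules were KRT-19-negative, KRT-19-positive, or KRT-19-positive after 2 d or 4 d of T3 (triiodothyronine, the active thyroid hormone), where KRT-19 is keratin 19, a filament protein of bile ducts. Neither a T3 dose, nor the induction of the nodules, nor an age is stated in the labels. They also do not say whether each array stands for its own animal, and p-values measure the spread between these samples only. A level is a background-corrected, quantile-normalised log2 intensity, and a difference was called at an adjusted p under 0.05 in limma, a linear model fitted across all 11558 features.

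Liver makes fatty acids from citrate that leaves the mitochondria. ATP citrate lyase (Acly) splits it into acetyl-CoA, acetyl-CoA carboxylase (Acaca) makes malonyl-CoA from that, and fatty acid synthase (Fasn) builds the chain, while acetoacetyl-CoA synthetase (Aacs) feeds ketone carbon into lipid synthesis. Elongases of the Elovl family lengthen the product, stearoyl-CoA desaturase (Scd) makes monounsaturated chains, and the delta-5 and delta-6 desaturases (Fads1 and Fads2) work on polyunsaturated ones. Srebf1 encodes SREBP-1, a membrane-bound transcription factor that activates many of these genes after its release, and thyroid hormone is known to act on hepatic lipogenesis as well.

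The regions just before the transcription starts are shown for genes whose levels moved in different ways. Elovl5 had the largest rise under T3 among the 8 lipogenic genes tested, and Scd and Fads1 had smaller rises. Srebf1, shown with both annotated starts, fell at 2 d. Capitals mark the CCAAT box (CCAAT, or ATTGG read from the other strand), the E-box CACGTG and the GC box (GGGCGG, or CCGCCC read from the other strand). The sequences are the 250 bases before the start, from RefSeq on the rat build GRCr8. The strands and positions are chr8:87670914-87671163 on the plus strand for Elovl5, chr1:253231732-253231981 on the minus strand for Scd, chr1:216252442-216252691 on the plus strand for Fads1, and chr10:45529165-45529414 and chr10:45519011-45519260 on the minus strand for start 1 and start 2 of Srebf1.
Elovl5: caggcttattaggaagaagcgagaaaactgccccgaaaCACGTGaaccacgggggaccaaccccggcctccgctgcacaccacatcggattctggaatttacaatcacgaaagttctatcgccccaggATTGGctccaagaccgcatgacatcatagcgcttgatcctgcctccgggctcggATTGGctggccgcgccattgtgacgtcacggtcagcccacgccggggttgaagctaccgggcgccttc
Scd: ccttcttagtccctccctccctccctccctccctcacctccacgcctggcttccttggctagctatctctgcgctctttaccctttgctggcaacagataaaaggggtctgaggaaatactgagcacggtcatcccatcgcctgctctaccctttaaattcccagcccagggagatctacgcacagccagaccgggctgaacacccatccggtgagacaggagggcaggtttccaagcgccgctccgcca
Fads1: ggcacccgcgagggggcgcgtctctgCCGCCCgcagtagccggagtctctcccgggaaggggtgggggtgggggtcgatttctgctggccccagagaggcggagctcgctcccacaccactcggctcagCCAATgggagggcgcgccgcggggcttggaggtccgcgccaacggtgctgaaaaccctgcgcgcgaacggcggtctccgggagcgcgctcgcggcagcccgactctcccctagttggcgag
Srebf1 start 1: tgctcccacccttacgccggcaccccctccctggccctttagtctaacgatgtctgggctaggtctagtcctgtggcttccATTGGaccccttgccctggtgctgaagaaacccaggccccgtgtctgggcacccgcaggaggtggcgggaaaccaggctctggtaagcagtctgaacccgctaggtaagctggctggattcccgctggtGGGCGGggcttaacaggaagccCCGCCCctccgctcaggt
Srebf1 start 2: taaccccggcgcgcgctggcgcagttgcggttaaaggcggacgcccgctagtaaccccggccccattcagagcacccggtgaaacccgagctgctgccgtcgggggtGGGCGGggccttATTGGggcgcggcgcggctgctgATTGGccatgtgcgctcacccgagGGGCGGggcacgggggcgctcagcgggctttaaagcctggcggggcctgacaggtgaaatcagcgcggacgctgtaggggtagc

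Promoters were found for 7 of the 10 genes. Elovl5 held 2 CCAAT boxes, at -122 and -68 from the start, and an E-box at -212. Fads1 held 1 CCAAT box at -121 and 1 GC box at -224, and Scd held none of these letters. At Srebf1, start 2 carried 2 CCAAT boxes (-131 and -108) and 2 GC boxes (-143 and -84), and start 1 carried 1 CCAAT box (-169) and 2 GC boxes (-40 and -18). Of the others, Acly held 1 CCAAT box and 3 GC boxes, Fads2 held 1 GC box, and Aacs held none. Both strands were searched, and of 33469 rat promoter windows of the same length 34% held a CCAAT box, 5.59% the E-box and 30.5% a GC box. A sterol response element (TCACCCCAC), the thyroid hormone response element of the DR4 type (AGGTCA, any 4 bases and AGGTCA again) and a lone AGGTCA, which every DR4 element also holds, were searched as well. None of them was found in these windows of the 7 genes, against 0.409%, 0.00299% and 14.1% of all windows. A match or its absence in these letters is a description of the window only.

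Between 8380 and 10695 probes were above background per array, with a median of 9218 in control liver, 9298 in KRT-19-negative nodules, 10493 in KRT-19-positive nodules, 9540 after 2 d of T3 and 9789 after 4 d. All 8 hepatocyte markers with a probe were detected in each group. A summed level is the log2 of the summed linear intensities of a list, so its brightest genes weigh most. For hepatocyte markers it ranged from 17.19 to 17.42 in control, 17.27 to 17.44 in KRT-19-negative, 16.78 to 17.30 in KRT-19-positive, 17.01 to 17.33 in T3 2 d and 17.24 to 17.28 in T3 4 d arrays. The 6 cholangiocyte markers include Krt19, the marker that names the groups, so their sum follows the grouping in part. Their summed level ranged from 8.68 to 9.21 in control, 9.05 to 11.43 in KRT-19-negative and 11.99 to 13.33 in KRT-19-positive arrays. The summed level was 10.53 to 12.49 in T3 2 d and 9.32 to 10.13 in T3 4 d arrays. That of 7 adipocyte markers, another cell type that makes fat, ran from 10.96 to 11.96, 11.27 to 12.17, 12.00 to 12.59, 11.95 to 12.28 and 10.85 to 11.73 in the same order. Of these, Adipoq, Lep and Retn were above background on 2, 1 and 0 of 48 arrays, and Cfd, Cidea, Fabp4 and Pparg on 48, 48, 41 and 27. Fabp4 (4.45 log2), Cidea (3.51) and Pparg (0.63) were called higher in KRT-19-positive nodules against control, and all 4 were called lower at 4 d of T3 than without it (Cidea -1.85, Fabp4 -1.52, Pparg -0.73 and Cfd -0.68). The part of the detected probes and of these cell types in the results below was not tested. In bulk tissue, fewer cells of a type and less RNA per cell cannot be told apart.

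Arrays with earlier title numbers (1 to 4 in control, 1 to 5 in nodules) were also compared without those with later numbers, a split chosen after seeing the data. All 42 calls made on the 8 genes over 8 comparisons had the same sign among the earlier and among the later numbers, and 24 of them passed the threshold in both. The calls were made on these same arrays and the comparisons share groups, so agreement in sign was largely set beforehand and is no replication.

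In KRT-19-negative nodules the elongase and the polyunsaturated desaturases were lower than in control liver. Elovl5 fell by 1.49 log2 (2.81-fold), Fads2 by 0.58 (1.49-fold) and Fads1 by 0.37 (1.29-fold), while the synthesis genes Acly, Acaca and Aacs, as well as Scd and Srebf1, did not pass the threshold. Of the 8 genes, 0 were called higher and 3 lower, where 11.2% of all features were called higher and 10.7% lower (21.9% in either direction). The median difference of the 8 genes was -0.14 log2, against -0.01 over all features. None of the 3 calls passed among both the earlier and the later title numbers, and only that on Elovl5 passed under median scaling of the arrays.

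In KRT-19-positive nodules the decrease reached 6 of the 8 genes, and none was called higher. Against control, Elovl5 was 3.70-fold, Fads2 3.01-fold, Srebf1 1.94-fold, Fads1 1.83-fold, Acly 1.67-fold and Scd 1.27-fold lower. In this comparison 48.7% of all features were called, 24.8% higher and 23.9% lower. The median of the 8 genes was -0.81 log2, where the median of all features was -0.03 and 1 feature in 10 lay at or below -0.67. The calls on Acly and Scd were lost under median scaling. Directly against KRT-19-negative nodules, Fads2, Srebf1, Acly and Fads1 were lower in KRT-19-positive nodules and the other 4 did not pass, with 14.7% of all features called lower and 32% in either direction. Those on Fads2 and Srebf1 passed under median scaling, and those on Acly and Fads1 did not.

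After 2 d of T3, 5 of the 8 genes were higher than in KRT-19-positive nodules without T3. They were Elovl5 (3.63-fold), Aacs (1.69-fold), Scd (1.46-fold), Fads1 (1.28-fold) and Acaca. The fold of Acaca, 3.07, rests on a group in which its probe was above background on 4 of 10 arrays, so it may understate the difference. Srebf1 went the other way and was 2.26-fold lower. Over all features, 15.8% were called higher and 15.5% lower, which makes 31.3% in either direction. When arrays were scaled by their medians instead of by quantiles, the median of all features itself moved to -0.37 log2, and Fads1 had a value of -0.083 in place of 0.36, which is 0.29 above that median. Under that scaling 3 of the 6 calls passed (Acaca, Elovl5 and Srebf1).

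After 4 d of T3, 6 of the 8 genes were higher than in KRT-19-positive nodules without T3 and none was lower. Elovl5 was 7.72-fold, Aacs 2.40-fold, Scd 1.58-fold, Fads2 1.56-fold and Fads1 1.45-fold higher, and Acly and Srebf1 did not pass. Acaca was 4.87-fold higher, with the same limit from the 4 of 10 arrays without T3. Under median scaling 3 of the 6 calls passed (Elovl5, Acaca and Aacs), and those on Scd, Fads1 and Fads2 were lost. In this comparison 27.1% of all features were called higher and 26.6% lower, together 53.7%. The median of the 8 genes was 0.65 log2, against 0.00 (0.00334) over all features. From 2 d to 4 d, Elovl5, Srebf1, Acaca and Fads2 rose, where 22.4% of all features were called higher, 22.1% lower and 44.4% in either direction.

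Against control liver, nodules after T3 had some genes of the pathway higher and others lower. After 4 d, Acaca (3.38-fold, with 5 of 8 control arrays above background), Elovl5 (2.08-fold), Aacs (1.98-fold) and Scd (1.24-fold) were higher than in control, and Srebf1 (2.25-fold), Fads2 (1.94-fold), Acly (1.46-fold) and Fads1 (1.26-fold) were lower, with 42% of all features called (21.7% higher, 20.3% lower). The call on Scd was lost when control array 6 was left out (adjusted p = 0.105), and Scd had a value of -0.059 under median scaling, where the calls on Acly and Fads1 were lost too. After 2 d, 1 gene (Acaca) was higher and 4 (Srebf1, Fads2, Fads1 and Acly) were lower, with 24.8% of all features called higher, 22.6% lower and 47.3% in either direction. The call on Acly at 2 d (-0.42 log2, adjusted p = 0.0433 in limma) was lost without any 1 of 10 different arrays, with adjusted p up to 0.114. The comparisons of KRT-19-positive nodules with control and of T3 with KRT-19-positive nodules share the KRT-19-positive arrays, so a fall in one and a rise in the other are not separate observations.

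**Figure D1:**
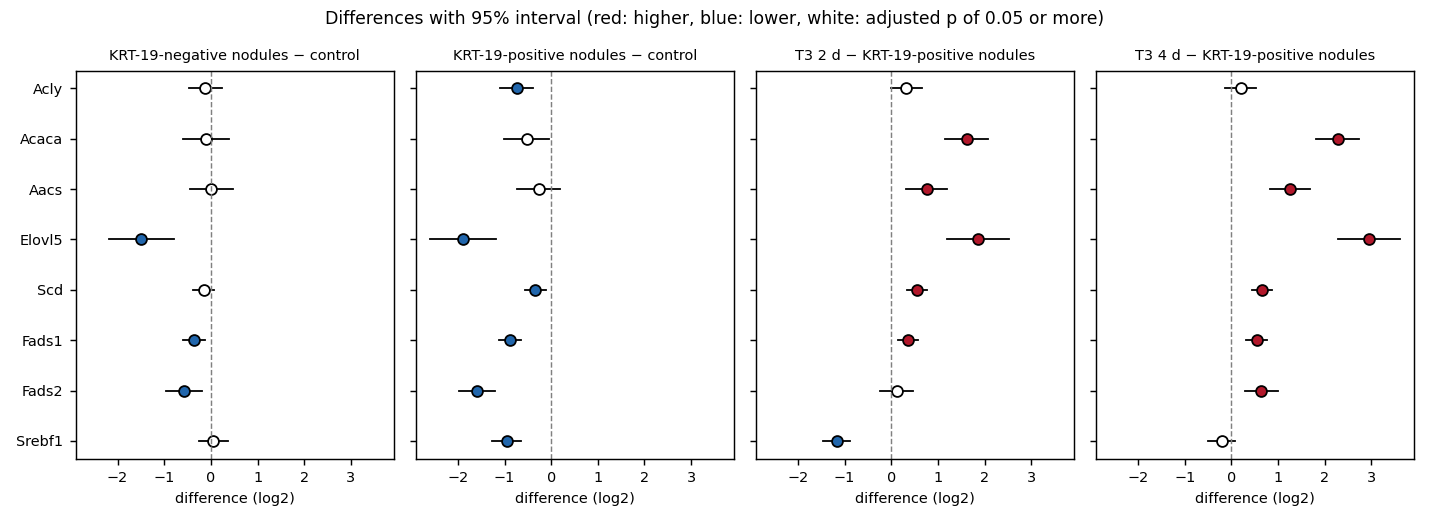
Differences in log2 level (x axis) of the 8 tested genes (y axis) in 4 comparisons, with 95% intervals from limma, where red points were called higher, blue points lower and white points did not pass an adjusted p of 0.05. The called genes lie left of 0 in nodules without T3, with Elovl5 at -1.49 and -1.89, and right of 0 after T3 except Srebf1, at -1.17 after 2 d.

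Acly, the first step from citrate, was bright on all 48 arrays. Its log2 level had a lowest, median and highest value of 11.23, 12.06 and 12.44 in control, and of 10.81, 11.95 and 12.34 in KRT-19-negative nodules. The values in KRT-19-positive nodules were 10.34, 11.33 and 11.52, after 2 d of T3 10.82, 11.49 and 11.91, and after 4 d 10.98, 11.38 and 11.65. All 10 KRT-19-positive arrays lay below the control mean, but the ranges overlapped. The mean was 11.91 ± 0.50 (SD, n = 8) in control, against 11.17 ± 0.42 (SD, n = 10) for KRT-19-positive nodules, a difference of -0.74 ± 0.18 (SE, limma adjusted p = 0.000411). Acly after T3 did not pass the threshold against KRT-19-positive nodules, with differences of 0.32 ± 0.17 at 2 d (95% interval -0.02 to 0.65, limma adjusted p = 0.144) and 0.20 ± 0.17 at 4 d (-0.14 to 0.53, limma adjusted p = 0.329).

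Acaca, which makes the malonyl-CoA used for synthesis and for elongation, was dim without T3 and was above background on 5 of 8 control arrays, 7 of 10 KRT-19-negative and 4 of 10 KRT-19-positive arrays, so that its level there is near the floor of the measurement. Its lowest, median and highest log2 levels were 4.90, 5.89 and 6.96 in control, 4.63, 5.87 and 6.43 in KRT-19-negative, and 4.74, 5.14 and 5.85 in KRT-19-positive nodules. After T3 all 10 arrays at each time were above background, with 5.97, 7.05 and 7.81 at 2 d and 7.03, 7.63 and 7.97 at 4 d. Each T3 array of either time lay above each KRT-19-positive array without T3, and at 4 d above each control array too. The difference from KRT-19-positive nodules was 1.62 ± 0.23 at 2 d (limma adjusted p = 1.88e-07) and 2.28 ± 0.23 at 4 d (limma adjusted p = 3.29e-12). The step from 2 d to 4 d was 0.66 ± 0.23 (limma adjusted p = 0.015) with overlapping ranges. In KRT-19-positive nodules against control the value was -0.53 (limma adjusted p = 0.067), which passed once the fit held a covariate for detected probes (-0.80, adjusted p = 0.0194) and without any 1 of 5 arrays.

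Aacs was above background on 47 arrays and was close in the 3 groups without T3, with means of 6.62 ± 0.21 (SD, n = 8) in control, 6.63 ± 0.60 (SD, n = 10) for the KRT-19-negative group and 6.35 ± 0.46 (SD, n = 10) for the KRT-19-positive group. No difference among these passed (limma adjusted p = 0.99, 0.338 and 0.356 for KRT-19-negative against control, KRT-19-positive against control and KRT-19-positive against KRT-19-negative). After T3 its lowest, median and highest levels were 6.11, 7.21 and 7.84 at 2 d and 7.22, 7.42 and 8.60 at 4 d, against 5.76, 6.21 and 7.15 in KRT-19-positive nodules. The 2 d arrays overlapped the KRT-19-positive ones, and all 10 arrays at 4 d lay above each KRT-19-positive and each control array, but not above KRT-19-negative array 5 (7.47). The differences were 0.75 ± 0.22 (limma adjusted p = 0.00547) and 1.26 ± 0.22 (limma adjusted p = 1.91e-06). The step between both times was 0.51, with an adjusted p of 0.0505 in limma that fell to between 0.0313 and 0.0436 under 5 of the alternatives.

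**Figure D2:**
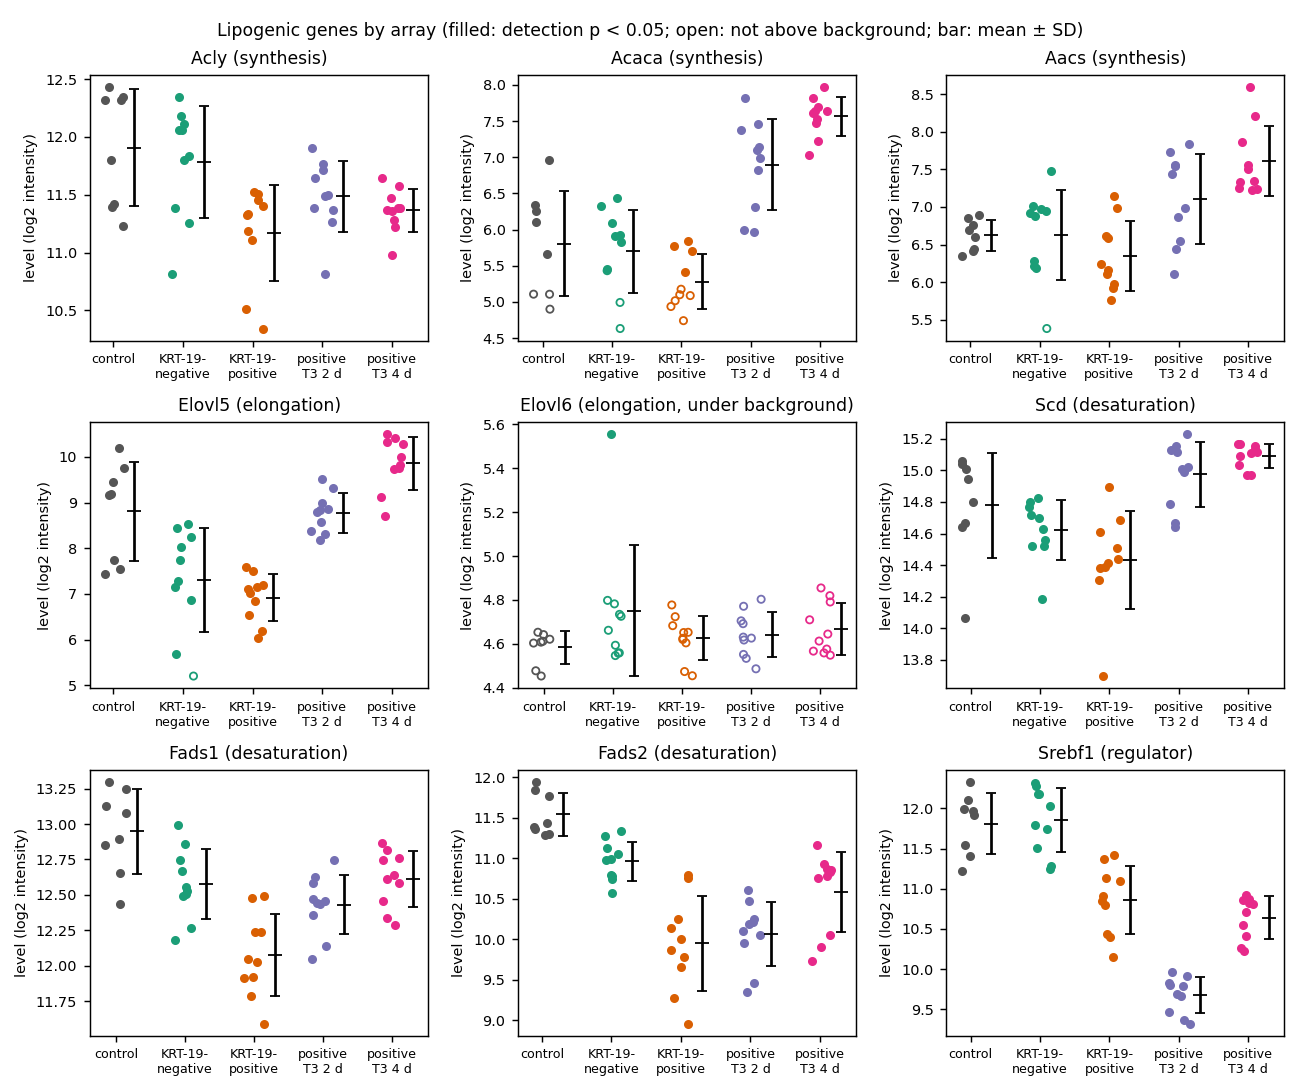
Log2 level (y axis, background-corrected and quantile-normalised intensity) of 9 genes on each array, by group (x axis), with filled points where the probe was above background, open points where it was not, and bars for mean ± SD (n = 8 in control, n = 10 in the other groups). Acaca and Elovl5 are highest after 4 d of T3, Srebf1 is lowest after 2 d of T3, and Elovl6 is above background on 1 array.

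Elovl5, which lengthens polyunsaturated chains, had the widest range of group means among the 8 genes, from 6.92 to 9.87. In control its lowest, median and highest log2 levels were 7.43, 9.18 and 10.19, with arrays 2, 5 and 6 between 7.43 and 7.75 and the other 5 between 9.17 and 10.19. KRT-19-negative nodules had 5.20, 7.51 and 8.52, with arrays 5 (5.68) and 10 (5.20) well under the rest, and array 10 was not above background. KRT-19-positive nodules had 6.03, 7.07 and 7.59. Control and both kinds of nodule overlapped, although all 10 arrays of each nodule group lay below the control mean of 8.81 ± 1.08 (SD, n = 8). The differences from control were -1.49 ± 0.35 (limma adjusted p = 0.00113) and -1.89 ± 0.35 (limma adjusted p = 1.01e-05). Among the earlier title numbers the value in KRT-19-negative nodules was -1.99 (limma adjusted p = 0.00336) and among the later ones -0.996 (adjusted p = 0.191).

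After T3 the Elovl5 levels were 8.17, 8.81 and 9.51 (lowest, median and highest) at 2 d and 8.70, 9.91 and 10.50 at 4 d. All of these arrays lay above each KRT-19-positive array without T3. The rise was 1.86 ± 0.33 at 2 d (limma adjusted p = 1.63e-05) and 2.95 ± 0.33 at 4 d (limma adjusted p = 9.08e-11), and the step between both times was 1.09 ± 0.33 (limma adjusted p = 0.00561). At 2 d the mean of 8.78 was 0.03 below that of control (95% interval of the difference -0.73 to 0.67, limma adjusted p = 0.955), and at 4 d the mean of 9.87 was 1.06 ± 0.35 above it (limma adjusted p = 0.012). The excess over control at 4 d was 0.64 (limma adjusted p = 0.3) among the earlier and 1.48 (adjusted p = 0.0211) among the later title numbers.

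Elovl6, the elongase that takes palmitate to stearate, gave group means between 4.58 and 4.75 log2. The array above background was KRT-19-negative array 2, at 5.56. No change of this gene can be read from these values, in either direction.

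Scd lay near the top of the scale, with group means from 14.43 to 15.09 where the highest value of any probe was 15.27, so that little room was left above it. Its lowest, median and highest log2 levels were 14.06, 14.87 and 15.06 in control, 14.18, 14.66 and 14.82 in KRT-19-negative, and 13.70, 14.42 and 14.89 in KRT-19-positive nodules. They were 14.64, 15.02 and 15.23 at 2 d and 14.97, 15.11 and 15.17 at 4 d of T3. The SD was 0.08 at 4 d, against 0.31 in KRT-19-positive nodules, and all 10 arrays at 4 d lay above each of the KRT-19-positive arrays. KRT-19-positive nodules were -0.35 ± 0.11 from control (limma adjusted p = 0.00851), a call lost once the fit held a covariate for detected probes (adjusted p = 0.0703). The rises under T3 were 0.54 ± 0.11 at 2 d (limma adjusted p = 6.61e-05) and 0.66 ± 0.11 at 4 d (limma adjusted p = 5.57e-07). Both calls were lost under median scaling, with values of 0.117 and 0.185. There the median of all features was -0.371 at 2 d and -0.238 at 4 d.

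Fads1 and Fads2, the desaturases of polyunsaturated chains, stepped down from control to KRT-19-negative and again to KRT-19-positive nodules. The lowest, median and highest log2 levels of Fads2 were 11.29, 11.41 and 11.94 in control, 10.57, 10.98 and 11.33 in KRT-19-negative and 8.96, 9.94 and 10.79 in KRT-19-positive nodules. Every KRT-19-positive array lay below every control array, while KRT-19-negative arrays overlapped both groups. The differences from control were -0.58 ± 0.19 (limma adjusted p = 0.0214) and -1.59 ± 0.19 (limma adjusted p = 5.39e-10), and KRT-19-positive nodules were -1.01 ± 0.18 from KRT-19-negative ones (limma adjusted p = 1.06e-05). The call in KRT-19-negative nodules was lost with array weights (adjusted p = 0.075).

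Fads2 was at 9.34, 10.15 and 10.61 after 2 d of T3 and at 9.73, 10.80 and 11.16 after 4 d. At 2 d it differed from KRT-19-positive nodules by 0.12 ± 0.18 (95% interval -0.24 to 0.47, limma adjusted p = 0.662), and at 4 d by 0.64 ± 0.18 (limma adjusted p = 0.00214). All T3 arrays of both times stayed below all control arrays, by 1.48 at 2 d (limma adjusted p = 3.75e-09) and 0.95 at 4 d (limma adjusted p = 4.38e-05) in the mean. At 4 d, arrays 1, 3 and 8 were the lowest of the group for Fads2 (9.90, 9.73 and 10.06), while the other 7 lay between 10.76 and 11.16. The same 3 arrays were also the lowest for Srebf1 (10.41, 10.22 and 10.26) and the lowest for Elovl5 (8.70, 9.13 and 9.74), and arrays 1 and 3 were the highest for Aacs (8.21 and 8.60).

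Fads1 had lowest, median and highest log2 levels of 12.43, 12.98 and 13.30 in control, 12.18, 12.54 and 12.99 in KRT-19-negative and 11.59, 12.04 and 12.49 in KRT-19-positive nodules, then 12.05, 12.45 and 12.74 at 2 d and 12.29, 12.62 and 12.86 at 4 d of T3. Neighbouring groups in this order overlapped throughout. The fall from control was 0.37 in KRT-19-negative (limma adjusted p = 0.0156) and -0.88 ± 0.12 in KRT-19-positive nodules (limma adjusted p = 8.07e-09). Fads1 rose by 0.36 ± 0.11 at 2 d (limma adjusted p = 0.00931) and by 0.54 ± 0.11 at 4 d (limma adjusted p = 3.99e-05) over KRT-19-positive nodules. It stayed below control by 0.34 at 4 d (limma adjusted p = 0.0152). In a fit with detected probes as covariate the rise at 2 d (adjusted p = 0.0776) and the deficit at 4 d (adjusted p = 0.054) no longer passed.

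Srebf1 was lower after 2 d of T3, when 5 of the enzymes were higher. Its lowest, median and highest log2 levels were 11.22, 11.94 and 12.33 in control and 11.25, 11.91 and 12.32 in KRT-19-negative nodules, a difference of 0.05 (95% interval -0.27 to 0.36, limma adjusted p = 0.875). In KRT-19-positive nodules they were 10.15, 10.88 and 11.42, a difference of -0.95 ± 0.16 from control (limma adjusted p = 9.87e-07) and of -1.0 ± 0.15 from KRT-19-negative nodules (limma adjusted p = 3.8e-07).

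After 2 d of T3 the 10 Srebf1 values lay between 9.32 and 9.96, with a median of 9.74, all below every array of the other 4 groups. The mean of 9.68 ± 0.23 (SD, n = 10) was -1.17 ± 0.15 from KRT-19-positive nodules (limma adjusted p = 1.47e-08) and -2.13 ± 0.16 from control (limma adjusted p = 1.93e-16), which is 4.37-fold lower. After 4 d the values were 10.22, 10.76 and 10.92, each above each 2 d array, and the mean rose by 0.96 ± 0.15 (limma adjusted p = 3.64e-07). At that time Srebf1 was within the range of KRT-19-positive nodules (-0.21, 95% interval -0.51 to 0.08, limma adjusted p = 0.225) and below every control array (-1.17 ± 0.16, limma adjusted p = 1.95e-08). The array has 1 probe for Srebf1, so transcripts from its separate starts cannot be told apart, and the protein's release was not measured.

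Other genes of the pathway were grouped in 4 lists, from which counts are given with the shares of all features called in each comparison above, and up to 3 called genes of a list and comparison with the largest differences are named. The supply of citrate, acetyl-CoA and NADPH was represented by 6 tested genes, of which 5 were higher and 0 lower at 2 d of T3 and 4 higher and 1 lower at 4 d, against KRT-19-positive nodules (medians 0.37 and 0.79). Of all features, 15.8% were called higher and 15.5% lower at 2 d, and 27.1% and 26.6% at 4 d. The cytosolic malic enzyme Me1, a source of NADPH for synthesis, had a mean log2 level of 9.54 ± 0.24 (SD, n = 10) in KRT-19-positive nodules, 12.02 ± 0.30 (SD, n = 10) at 2 d and 12.46 ± 0.30 (SD, n = 10) at 4 d. It rose by 2.48 ± 0.22 (limma adjusted p = 5.8e-13) and 2.92 ± 0.22 (limma adjusted p = 1.66e-16), with no overlap with arrays without T3. The acetyl-CoA synthetase Acss2 (0.63 and 1.31) and the malonyl-CoA decarboxylase Mlycd (0.37 and 1.42), which removes the product of Acaca, rose too. Under median scaling the value of Mlycd at 2 d was -0.14, where the median of all features was -0.37. The mitochondrial malic enzyme Me2 was 2.13 ± 0.18 above control in KRT-19-positive nodules (limma adjusted p = 2.45e-14). Its probe was above background on 5 of 8 control arrays, so this difference may be understated. Mean Me2 levels were 7.60 in KRT-19-positive nodules, 7.42 at 2 d and 6.63 at 4 d of T3.

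Against control, 11 of 16 tested regulators were lower and 1 was higher in KRT-19-positive nodules, with a median of -0.47. There 23.9% of all features were called lower and 24.8% higher. Insig2, which holds the SREBP precursor in the endoplasmic reticulum, fell from 13.11 ± 0.25 (SD, n = 8) in control to 10.96 ± 0.41 (SD, n = 10) in KRT-19-positive nodules, by 2.15 (limma adjusted p = 2.66e-17). It rose by 0.66 ± 0.14 at 2 d (limma adjusted p = 0.000192) and by 1.68 ± 0.14 at 4 d of T3 (limma adjusted p = 8.18e-15). The thyroid hormone receptor Thrb fell by 0.95 in KRT-19-positive nodules against control and rose by 0.56 at 2 d and 0.78 at 4 d. Under median scaling its value at 2 d was -0.026, where the median of all features was -0.37. Thrsp, a thyroid hormone-responsive protein of lipogenic tissues, rose by 1.12 ± 0.14 at 4 d (limma adjusted p = 1.88e-09). Mean Thrsp levels were 13.66 in KRT-19-positive nodules, 14.18 at 2 d and 14.78 at 4 d. Over the list of 16, nodules after T3 had 3 higher and 3 lower at 2 d and 5 higher and 2 lower at 4 d. Of all features, 15.8% were called higher and 15.5% lower at 2 d, and 27.1% and 26.6% at 4 d.

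Among 8 other tested enzymes of elongation and desaturation, KRT-19-positive nodules had 2 higher and 2 lower genes than control, and nodules after T3 had 1 higher and 4 lower at 2 d and 3 higher and 2 lower at 4 d. The shares of all features called higher and lower were 24.8% and 23.9%, 15.8% and 15.5%, and 27.1% and 26.6% in the same order. Elovl2, the elongase that follows Elovl5 on polyunsaturated chains, had means of 8.86 ± 0.50 (SD, n = 8) in control, 7.25 ± 0.29 (SD, n = 10) in KRT-19-positive nodules, 9.21 ± 0.43 (SD, n = 10) at 2 d and 10.72 ± 0.60 (SD, n = 10) at 4 d. It fell by 1.60 in KRT-19-positive nodules against control (limma adjusted p = 1.68e-09) and rose by 1.96 at 2 d (limma adjusted p = 8.65e-12) and 3.47 at 4 d (limma adjusted p = 2.31e-21). Scd2, another stearoyl-CoA desaturase, ran opposite to Scd. Its mean was 6.75 ± 0.36 (SD, n = 8) in control, 7.88 ± 0.61 (SD, n = 10) in KRT-19-negative nodules, then 10.23 ± 0.53 (SD, n = 10) for the KRT-19-positive group, and each KRT-19-positive array was above each control array. After T3 it differed from KRT-19-positive nodules by -1.26 ± 0.27 at 2 d (limma adjusted p = 0.000298) and by -3.00 ± 0.27 at 4 d (limma adjusted p = 2.06e-13). The median summed level of the cholangiocyte markers was 8.86 in control, 10.27 in KRT-19-negative, 12.43 in KRT-19-positive, 11.23 in T3 2 d and 9.61 in T3 4 d arrays, and that of 5 stellate cell markers was 10.83, 11.79, 12.82, 12.77 and 11.72. The first sum was lower at 2 d than in KRT-19-positive nodules, and the second was nearly level there and lower at 4 d. Each sum is set by its brightest genes. In KRT-19-positive nodules these were, in the first, Krt19 (mean 11.82), the marker that names the groups, and Epcam (11.00). Of the 5 stellate cell markers, 3 were called lower and 1 higher at 4 d than in KRT-19-positive nodules. For the 7 adipocyte markers the median summed level was 11.38, 11.70, 12.28, 12.04 and 10.97 in the same group order. Medians of the hepatocyte, macrophage, endothelial, lymphocyte and red blood cell lists did not peak in KRT-19-positive nodules. The part of any of these cell types in the Scd2 values was not tested, nor was cross-binding between probes of related genes.

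Among 16 tested genes of fatty acid activation and triglyceride assembly, 8 were lower and 0 higher in KRT-19-negative nodules, and 10 lower and 2 higher in KRT-19-positive nodules, against control. The shares of all features called lower and higher were 10.7% and 11.2% in the first comparison and 23.9% and 24.8% in the second. In KRT-19-positive nodules the acyl-CoA synthetases Acsl5 (-1.64) and Acsl1 (-1.63) and the lipid droplet coat protein Plin2 (-1.57) fell. Against KRT-19-positive nodules, those after T3 had 5 higher and 2 lower at 2 d, and 12 higher and 2 lower at 4 d, with a median of 0.83 at 4 d. Here 15.8% of all features were called higher and 15.5% lower at 2 d, and 27.1% and 26.6% at 4 d. Lpin1, a phosphatidate phosphatase, rose by 1.65 ± 0.18 and 2.15 ± 0.18 at the respective times (limma adjusted p = 3.44e-10 and 8.59e-15), and Plin2 rose by 1.42 and 1.48. Dgat2, which forms triglyceride, rose by 1.37 ± 0.13 at 2 d (limma adjusted p = 1.51e-11). Its means were 10.77 in KRT-19-positive nodules, 12.14 at 2 d and 12.01 at 4 d. Mttp, which loads triglyceride onto lipoproteins, rose by 1.60 ± 0.13 at 4 d (limma adjusted p = 1.57e-15), with means of 11.52, 12.12 and 13.12 in the same order.

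**Figure D3:**
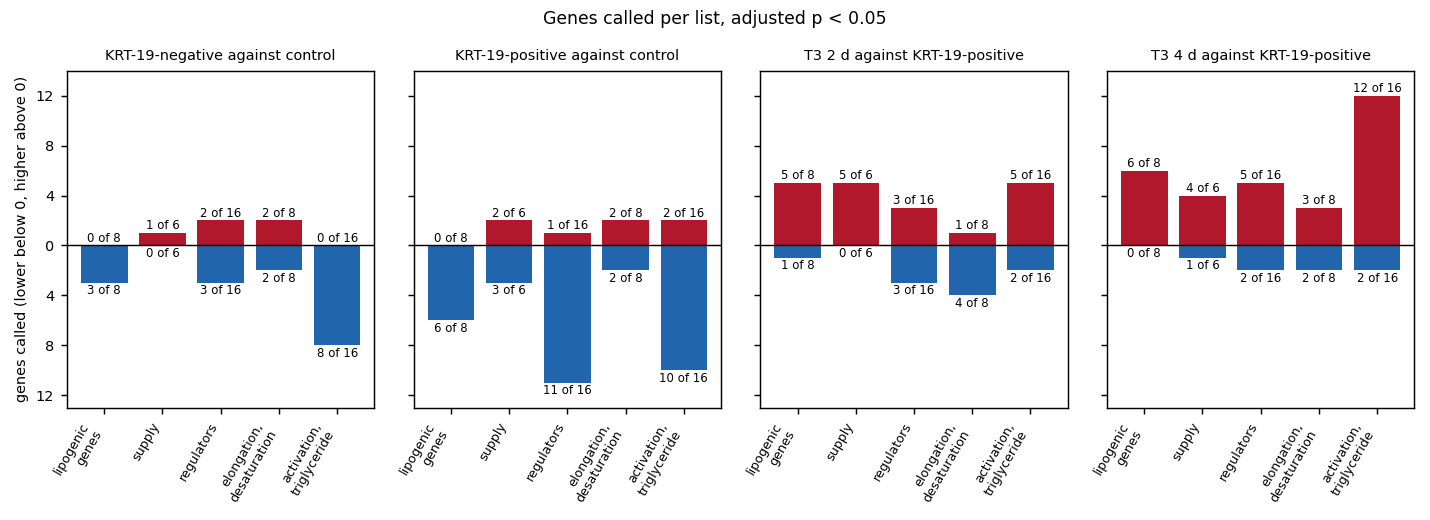
Number of genes called higher (red, above 0) or lower (blue, below 0) at an adjusted p under 0.05 in the 8 lipogenic genes and in 4 lists of other pathway genes (x axis) for 4 comparisons. In KRT-19-positive nodules 6 of 8 lipogenic genes, 11 of 16 regulators and 10 of 16 genes of activation and triglyceride assembly are lower than in control. In that comparison 23.9% of all features were called lower. After 4 d of T3, 12 of the 16 genes of activation and triglyceride assembly are higher than without T3, where 27.1% of all features were called higher.

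The shape over the 5 groups was compared between genes by the root mean square difference of group means, each gene centred on its own mean, as a description. Among the 8 genes, Acly and Fads1 were the closest pair (0.15 log2) and Elovl5 and Srebf1 the farthest apart (1.54), and Acaca and Srebf1 differed by 1.48. The named genes outside the 8 with the nearest shapes to Fads2 were Nr1h4 (0.08), Tgfbi (0.09) and Cyp2f4 (0.10), and those nearest to Srebf1 were Fxyd1 (0.08), C4b (0.13) and Cyp2c13 (0.14). For Elovl5 and Acaca, which were added after their values were seen, they were Slc25a30 (0.24), Elovl2 (0.29) and Abhd1 (0.33), and Slc22a5 (0.12), Pdhb (0.12) and Mpc2 (0.21).

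**Figure D4:**
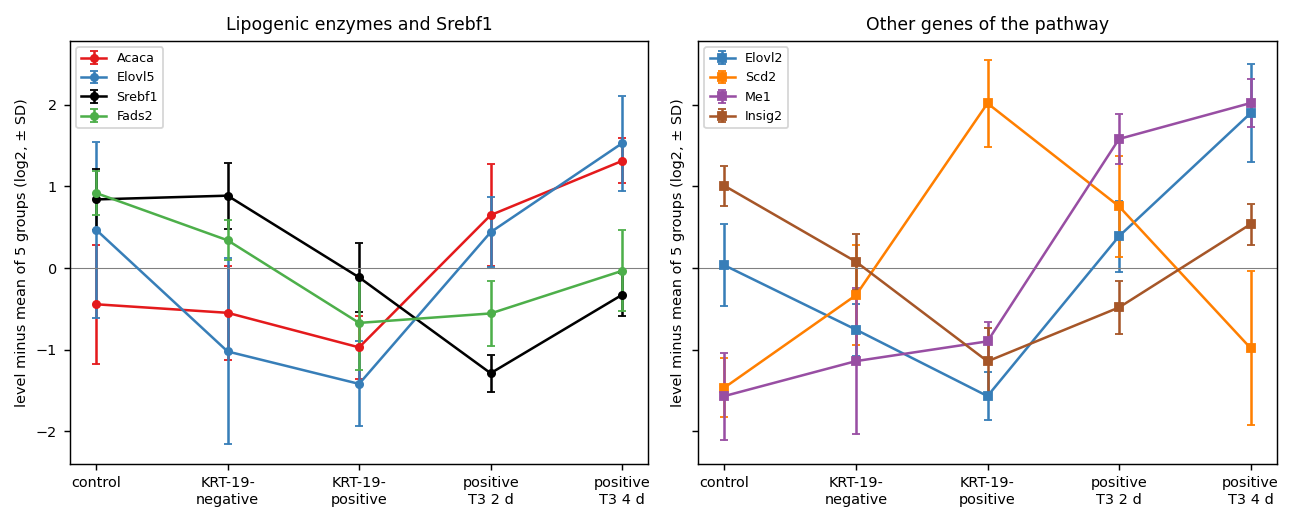
Group mean minus the mean of the 5 groups, in log2 (y axis, bars are the SD over arrays), by group (x axis) for 4 of the 8 genes (left) and 4 other pathway genes (right). Acaca and Elovl5 are lowest in KRT-19-positive nodules and highest at 4 d of T3, Srebf1 is lowest at 2 d, and Scd2 peaks in KRT-19-positive nodules, where Elovl2 is lowest.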

How the data were processed

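Illumina bead arrays of 48 rat liver samples were grouped by their titles into 8 controls and 4 nodule groups of 10. Per its column headers, one deposited table, named non-normalised, gives a value per probe and array with a detection p-value beside it. Its values were taken as linear intensities without background subtraction, which the headers do not state. From its values, that p-value counts in steps of 1 in 825 control bead types. BeadStudio 3.0.19.0 is named in the submitters' processing notes. The second deposited table holds intensities quantile normalised on the linear scale by the authors, as read from its values. All 48 columns matched their own array, and no pair of arrays was identical. Precision is limited by how many arrays there are. The genome build of the array annotation is not given in the sources used here, and the promoter windows are on GRCr8.

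Background was corrected by normexp, using the detection p-values, and arrays were then quantile normalised and taken to log2 with an offset of 16 (neqc, limma 3.58.1 in R 4.3.3, the data.table package at version 1.17.8). Probes with a detection p under 0.05 on at least 8 arrays were kept (11723 of 22523), with 1 probe per gene, the brightest, which left 11558 features. The fit with lmFit and eBayes (trend on the mean) used all arrays and 1 coefficient for each group, and p-values of 8 contrasts were adjusted over all features (Benjamini-Hochberg). The procedure was tested on simulated data. The members and lists were chosen with earlier results of these data known. Named are all 10 genes, up to 3 called genes per other list and comparison with the largest differences, and the 3 nearest shapes, set for Fasn, Elovl6, Fads2 and Srebf1. The first pair could not be given. Alternatives were no background correction, the deposited normalised table, median scaling, an offset of 50, no detection filter or one of 24 arrays, the mean of probes, no variance trend, array weights, only the groups compared, detected probes as a covariate, title numbers as blocks and single arrays left out. With 1 probe for each of the 8 genes, the mean of probes could turn no sign, and its unchanged results say nothing about stability. The changed detection filters, no variance trend and only the groups compared left the difference of each gene as it was. These could move its adjusted p but could not turn its sign.

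Of the 8 lists of cell type markers, hepatocyte, cholangiocyte and adipocyte levels stand in the report. The macrophage list (4 genes with a probe) had median summed levels of 12.08 in control, 11.58 in KRT-19-negative, 11.98 in KRT-19-positive, 11.41 in T3 2 d and 11.04 in T3 4 d arrays. The endothelial list (2 genes) had 7.75, 8.45, 8.05, 8.22 and 7.69, the lymphocyte list (4 genes) 8.21, 7.91, 8.04, 8.04 and 7.75, and the red blood cell list (3 genes) 14.95, 13.91, 13.08, 13.44 and 14.47 in the same order. The stellate cell list (5 genes) had 10.83, 11.79, 12.82, 12.77 and 11.72.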

Additional observations from a re-analysis of the deposited data

Results flagged for a closer look

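Of 45 groups of arrays (9 genes in 5 groups), 4 held an array far from the others by Dixon's gap test, which chance does for about 1 in 20 groups. They were the Elovl6 value of KRT-19-negative array 2 (5.56 log2), and the Scd values of KRT-19-negative array 3 (14.18), KRT-19-positive array 1 (13.70) and control array 6 (14.06). Without control array 6 the excess of Scd at 4 d of T3 over control was 0.21 (limma adjusted p = 0.105).

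The difference from control was not the same in KRT-19-positive and KRT-19-negative nodules, and lay lower in the former, for Acly (-0.61), Fads1 (-0.51), Fads2 (-1.01) and Srebf1 (-1.0), each value being the tested difference between both kinds of nodule. The change from KRT-19-positive nodules differed between 4 d and 2 d of T3 for Acaca (0.66), Elovl5 (1.09), Fads2 (0.52) and Srebf1 (0.96), each value being 4 d minus 2 d and each with a limma adjusted p under 0.05.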

How the results depend on the processing

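Without median scaling and the split by title numbers, 12 alternatives gave 768 results for the 8 genes (64 each). Of these, 746 kept sign and side of the threshold, 7 lost the call, 9 gained it and 6 changed sign. Over all 15 the counts were 880, 40, 12 and 28 of 960. Some of the 12 could turn no sign (see above). Median scaling moved the median of all features to 0.31 in KRT-19-positive nodules against control, 0.29 in KRT-19-positive against KRT-19-negative, -0.37 in T3 2 d and -0.24 in T3 4 d against KRT-19-positive nodules. Of the 42 called differences 2 then changed sign, and 1 did relative to that median. It called 1 of the 8 genes in KRT-19-negative nodules against control (main count 3), 2 in KRT-19-positive against KRT-19-negative nodules (4), 3 in T3 2 d and 3 in T3 4 d against KRT-19-positive nodules (6 each) and 5 in T3 4 d against control (8). The features called then numbered 974, 5736 (415 higher and 5321 lower), 3421 and 2994 in KRT-19-negative nodules against control, T3 2 d against KRT-19-positive nodules, T3 4 d against 2 d and T3 4 d against control, in place of 2534, 3620, 5136 and 4855. Signs turned under it for Acaca (0.028) in KRT-19-negative nodules against control, Aacs (0.25) in KRT-19-positive nodules against control, Aacs (0.070) and Elovl5 (0.083) in KRT-19-positive against KRT-19-negative nodules, Acly (-0.18), Fads1 (-0.083), Fads2 (-0.42), Thrb (-0.026) and Mlycd (-0.14) in T3 2 d against KRT-19-positive nodules, and Acly (-0.083) and Hacd3 (-0.0049) at 4 d. They also turned for Acly (0.094) from 2 d to 4 d, and for Scd at 2 d (-0.13) and 4 d (-0.059) against control. The cause was not tested.

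With the earlier title numbers alone 1 of the 8 genes (1891 features) was called in KRT-19-negative nodules against control. For T3 2 d and 4 d against control the counts were 2 (3784) and 4 (3471). Features called were 1562 in T3 2 d against KRT-19-positive nodules and 3071 from 2 d to 4 d. With the later ones alone 1 gene (1681) was called in KRT-19-negative nodules against control and 2 (4365) from 2 d to 4 d. Fewer arrays enter these fits. Signs turned among the earlier numbers for Aacs (-0.031) and Srebf1 (-0.069) in KRT-19-negative nodules against control, Acaca (0.15) and Elovl5 (0.026) between both kinds of nodule, Acly (0.014) from 2 d to 4 d and Scd (-0.046) at 2 d against control. Among the later numbers they turned for Acaca (0.36) and Scd (0.075) in KRT-19-negative nodules against control, Aacs (0.012) in KRT-19-positive nodules against control, Fads2 (-0.19) in T3 2 d against KRT-19-positive nodules and Elovl5 (0.49) in T3 2 d against control. A fit of the compared groups alone called 1686 features in KRT-19-negative nodules against control. Array weights turned Acaca (0.053) and Aacs (-0.022) there, and detected probes as a covariate turned Aacs there (-0.0081) and Fads2 in T3 2 d against KRT-19-positive nodules (-0.026).

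Groups share title numbers. The correlation of the deviations of same-numbered arrays from their group means was over 0.1 for 7 of 10 pairs in T3 4 d against 2 d (-0.12 to 0.245), for 5 of 8 in KRT-19-negative nodules against control (-0.22 to 0.34) and for 0 to 2 pairs in each other comparison. In no comparison did every pair pass 0.1, and the labels name nothing that a number shares, so the numbers were not taken as pairs. With the number as a replicate block, 5 of the 8 genes, in place of 4, were called from 2 d to 4 d of T3. Aacs was added (adjusted p = 0.0418), and other gene counts were as before. The block turned Aacs (-0.063) in KRT-19-negative nodules and Elovl5 (0.052) in T3 2 d, each against control.

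With single arrays left out, the 8 genes gave 3 calls (lowest and highest) in KRT-19-negative nodules against control, 6 to 7 in KRT-19-positive nodules against control, 4 between both kinds of nodule, 6 in T3 2 d and 6 in T3 4 d against KRT-19-positive nodules, 4 to 5 from 2 d to 4 d, and 4 to 5 and 7 to 8 at 2 d and 4 d against control. The features called ranged, in the same order, from 2237 to 2619, 5389 to 5628, 3376 to 3962, 3355 to 3723, 6004 to 6185, 4858 to 5221, 5259 to 5573 and 4577 to 4854. Uncalled values that changed sign were Acaca (-0.23 to 0.061), Aacs (-0.088 to 0.14) and Srebf1 (-0.038 to 0.12) in KRT-19-negative nodules against control and Elovl5 (-0.23 to 0.17) in T3 2 d against control. A chip block was not run, as the headers used here name no chip. Signal over background limits Acaca without T3 and Elovl6, and the top of the scale limits Scd.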
